A study of Mus musculus with 2 samples.

Results

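The cells described here are activated helper T cells of the mouse intestine, picked by UMIs of Tnfsf8 or Izumo1r, and they numbered 167 of 15156 kept barcodes. Of these members, 129 came from the butyrate library and 38 from the RA library. Barcodes were first kept if they had 500 or more UMIs (unique molecular identifiers, each counting 1 captured transcript), 250 or more genes, and mitochondrial UMIs of no more than 25%. A member had at least 2 UMIs over the CD3 genes Cd3d, Cd3e and Cd3g, at least 2 UMIs over Tnfsf8 and Izumo1r, and fewer than 2 UMIs of Lef1. It also had 0 UMIs of Foxp3, Trdc, Cd8a, Cd8b1, Cd79a and Epcam. These 12 genes chose the cells, so their levels are described below without a test.

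Whole intestines of 2 wild-type mice were dissociated and run as 1 droplet library each with 3′ chemistry. The butyrate library came from a mouse given a diet with 1% butyrate, and the RA library from a mouse with collagen-induced arthritis (CIA) on standard chow. Whether arthritis was also induced in the mouse on butyrate is not stated in the labels, and the 2 groups may therefore differ in more than the diet. With 1 mouse per group no test between the groups was possible, and every interval between them covers counting error only.

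CD4 helper T cells recognise antigen through the T cell receptor and need a second signal through costimulators such as CD28 and ICOS. Follicular helper cells, marked by Bcl6, Cxcr5 and Il21, help B cells in germinal centres, and in the gut that help shapes IgA responses to microbes. T helper 17 cells, marked by Il17a, Il17f and Il22, are frequent in the intestinal lamina propria and act on epithelial defence. Tnfsf8 encodes CD153, the ligand of CD30 on activated lymphocytes, and Izumo1r encodes folate receptor 4, known in mice from regulatory, follicular helper and anergic CD4 T cells. Butyrate is a short-chain fatty acid made by gut bacteria and an inhibitor of histone deacetylases.

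Tnfsf8 (chr4:63831308-63861347, minus strand) and Izumo1r (chr9:14885814-14903949, minus strand) are protein-coding genes, placed here by the GENCODE M21 annotation of GRCm38 (mm10). Il17a (chr1:20730905-20734496, plus strand) and Il17f (chr1:20777146-20790617, minus strand) are neighbours on chromosome 1, and both encode T helper 17 cytokines that were lower in butyrate members. The 250 bases before the RefSeq start of these 4 genes are shown because the first pair chose the cells and both genes of the second pair were lower in butyrate members. They are from RefSeq on GRCm38.p6, and are chr4:63861285-63861534, chr9:14903768-14904017, chr1:20730655-20730904 and chr1:20784271-20784520, each printed on its gene's strand. Capitals mark matches on either strand to TGANTCA, an AP-1 motif, to AGGTCA, bound by nuclear receptors, and to GGAAA, the NFAT core.
Tnfsf8: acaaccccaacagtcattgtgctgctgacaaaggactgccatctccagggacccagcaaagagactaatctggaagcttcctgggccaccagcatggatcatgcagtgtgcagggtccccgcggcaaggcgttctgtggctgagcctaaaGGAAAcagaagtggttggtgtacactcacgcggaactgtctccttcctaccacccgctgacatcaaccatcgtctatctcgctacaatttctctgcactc
Izumo1r: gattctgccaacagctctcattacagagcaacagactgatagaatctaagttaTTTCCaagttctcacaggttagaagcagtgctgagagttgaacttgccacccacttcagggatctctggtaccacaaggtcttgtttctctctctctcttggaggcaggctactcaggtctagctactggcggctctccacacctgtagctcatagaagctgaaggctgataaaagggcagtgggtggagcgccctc
Il17a: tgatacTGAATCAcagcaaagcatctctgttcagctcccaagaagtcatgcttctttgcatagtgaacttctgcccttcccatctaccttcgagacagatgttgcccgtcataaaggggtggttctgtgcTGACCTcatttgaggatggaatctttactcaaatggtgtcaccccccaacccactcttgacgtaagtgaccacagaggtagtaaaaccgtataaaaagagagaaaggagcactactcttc
Il17f: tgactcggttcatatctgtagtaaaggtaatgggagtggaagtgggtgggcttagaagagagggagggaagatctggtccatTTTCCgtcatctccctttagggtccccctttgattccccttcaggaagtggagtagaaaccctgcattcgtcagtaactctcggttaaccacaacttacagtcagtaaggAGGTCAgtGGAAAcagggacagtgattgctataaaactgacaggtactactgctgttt
AGGTCA lay 120 bases before the start of Il17a and 58 bases before that of Il17f, and neither window of Tnfsf8 or Izumo1r held it. Among 32851 windows of the same length, 14% held AGGTCA, 6.75% held TGANTCA and 55.6% held GGAAA. A match is a description of letters and does not show a bound factor.

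The libraries held 9959 butyrate barcodes with 67894477 UMIs and 10140 RA barcodes with 61912439 UMIs. After filtering, 8247 butyrate and 6909 RA barcodes were kept. The lowest deposited barcode had 2313 UMIs in the butyrate library and 501 in the RA library, and 15.4% of butyrate and 29.95% of RA barcodes lay above the mitochondrial limit. The libraries shared 27 barcodes, none of them a member. Members had a median of 5205 UMIs in the butyrate library (2375 to 22622) and 5940 in the RA library (2993 to 18839), so the lower cut of the RA library did not reach them. The median number of genes was 2018 in butyrate members and 2226 in RA members, and the median mitochondrial share was 2.24% and 2.64%.

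The first comparison asks how common these helper cells were in the 2 intestines. Members made up 1.56% of kept cells in the butyrate library (129 of 8247, exact Clopper-Pearson 95% interval 1.31 to 1.86%) and 0.55% in the RA library (38 of 6909, 0.39 to 0.754%). The ratio was 2.84 (exact conditional 95% interval 1.967 to 4.199). Of the T cells with 0 UMIs of Trdc, Cd8a, Cd8b1, Cd79a and Epcam, here called Cd8-negative T cells, members were 15.7% in the butyrate library (129 of 822, 13.3 to 18.4%) and 8.19% in the RA library (38 of 464, 5.86 to 11.1%). That ratio was 1.92 (1.33 to 2.83), so the members were a larger fraction in the butyrate mouse under both denominators. The rule counts UMIs of Tnfsf8 and Izumo1r, and both genes were also higher in other T cell classes of the butyrate library (below). A higher level of these genes can admit more cells, and its part in the ratios was not tested.

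The other Cd8-negative T cells fell into classes that later serve for comparison. Cells with 0 UMIs of Tnfsf8 and Izumo1r that otherwise met the rule are called gate-negative, and they were 14.1% of the Cd8-negative T cells in the butyrate library (116 cells) and 17.03% in the RA library (79 cells). Lef1-high cells had at least 2 UMIs of Lef1, a factor of naive T cells, and were 59.4% in the butyrate library (488 cells) and 59.9% in the RA library (278 cells). Foxp3-positive cells, the regulatory T cells, were 7.54% (62 cells) and 11.4% (53 cells), a ratio of 0.66 (0.45 to 0.972). Among these classes the members alone had an interval of the butyrate over RA ratio above 1. The numbers follow captured cells, and a single mouse per group gives no measure of how much they vary between mice.

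**Figure D1:**
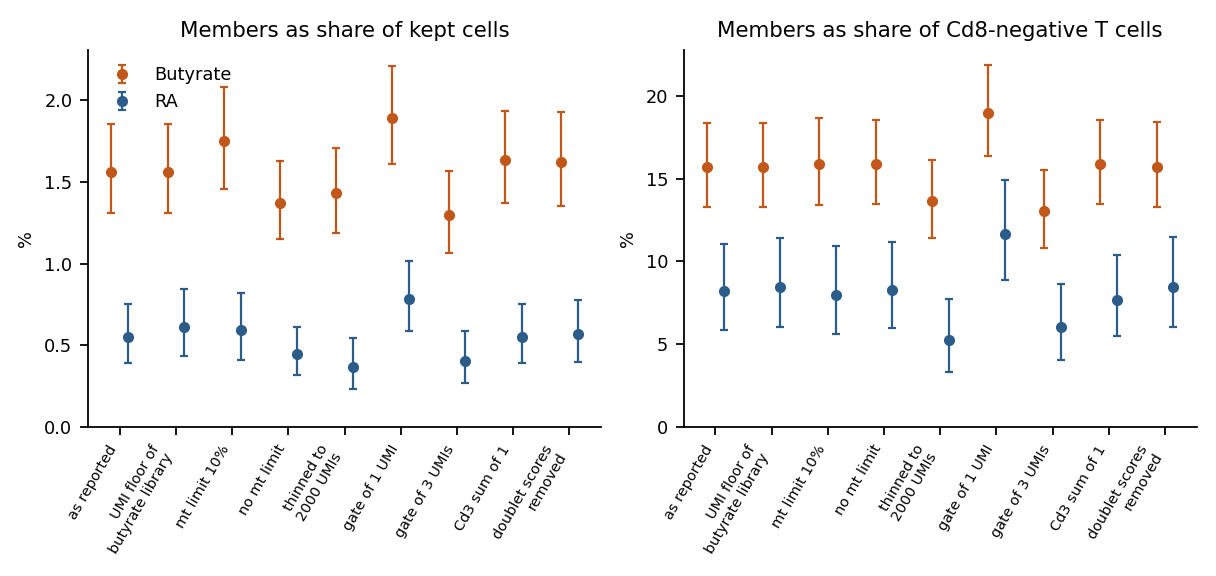
Members as a percentage of kept cells (left) and of Cd8-negative T cells (right), in the butyrate library (orange) and the RA library (blue), as reported and under 8 other settings of the cell filters or the rule. Points are shares and bars exact Clopper-Pearson 95% intervals, and the butyrate share lies above the RA share in every setting, at 1.56% against 0.55% and 15.7% against 8.19% as reported.

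Tnfsf8 carried most of the rule. Tnfsf8 had 1202 CPM (UMIs per 1e+06 UMIs of the members' sum, exact Poisson 95% interval 1126 to 1283) in butyrate members and 911 CPM (797 to 1036) in RA members, with a UMI in 114 of 129 and 34 of 38 cells. Izumo1r had 247 CPM (213 to 285) in butyrate members and 109.9 CPM (73.0 to 159) in RA members, with a UMI in 75 of 129 and 13 of 38 cells. Members with UMIs of both genes were 60 of 129 in the butyrate library (46.5%, 37.7 to 55.5%) and 9 of 38 in the RA library (23.7%, 11.4 to 40.2%). Members with Tnfsf8 alone were 54 in the butyrate library (41.9%, 33.2 to 50.9%) and 25 in the RA library (65.8%, 48.7 to 80.4%), and members with Izumo1r alone were 15 and 4. The butyrate over RA ratio of these shares was 1.96 (0.969 to 4.50) for both genes and 0.636 (0.389 to 1.07) for Tnfsf8 alone. For Izumo1r alone it was 1.105 (0.352 to 4.57), and each of these intervals included 1. Most members of both libraries had Tnfsf8 UMIs, and most RA members had UMIs of Tnfsf8 alone.

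Izumo1r differed between the libraries in the same direction outside the members. In Lef1-high cells it had 97.1 CPM in the butyrate library and 33.9 CPM in the RA library, and in Foxp3-positive cells 257 CPM and 121 CPM. The level in members was set by the rule. Tnfsf8 was lower outside the members, with 258 CPM (butyrate) and 171 CPM (RA) in Lef1-high cells and 141 CPM and 77.9 CPM in Foxp3-positive cells. In epithelial cells (at least 2 UMIs of Epcam and no CD3 or Cd79a UMI), Tnfsf8 had 0.293 CPM in the butyrate library and 0.8 CPM in the RA library, and Izumo1r had 0.195 CPM and 0 CPM.

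At the threshold, 22 butyrate and 10 RA members had exactly 2 UMIs of Tnfsf8 and Izumo1r together, and 27 butyrate and 16 RA cells that met every other condition had exactly 1. In butyrate cells Cd4 had 275 CPM in the members with 2 such UMIs and 161 CPM in the cells with 1, and in RA cells 195 CPM and 269.6 CPM. Sh2d1a had 226 CPM inside and 609.7 CPM outside the threshold in butyrate cells, and 259.5 CPM and 101 CPM in RA cells. Cd28 had 1002 CPM inside and 1082 CPM outside in butyrate cells and 1070 CPM and 1191 CPM in RA cells. By Lef1, 32 butyrate and 15 RA cells with exactly 2 UMIs of Lef1 lay just outside.

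**Figure D2:**
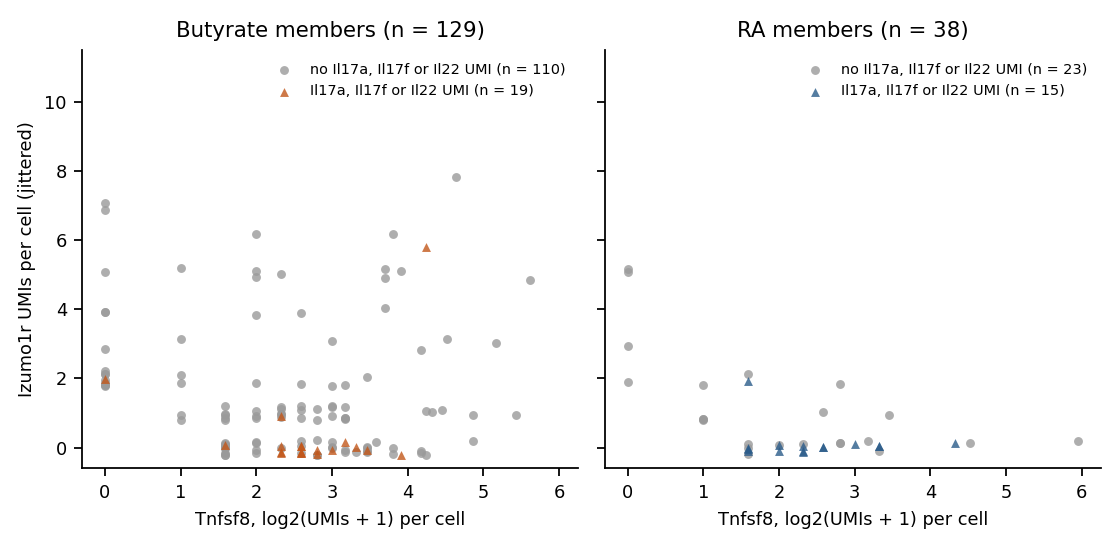
UMIs of Tnfsf8, as log2(UMIs + 1), against UMIs of Izumo1r, shifted vertically at random for display, in each of the 129 butyrate members (left) and 38 RA members (right). Coloured triangles mark the 19 butyrate and 15 RA members with a UMI of Il17a, Il17f or Il22, and most of them lie on the row of 0 Izumo1r UMIs.

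The label was checked against Sh2d1a, Cd28 and Cd4, the given markers that the rule did not use. Cd28, the receptor of the second signal for T cell activation, had 1254 CPM in butyrate members and 930.3 CPM in RA members, with a UMI in 128 of 129 and 37 of 38 cells. Cd4, the helper T cell coreceptor, had 259.9 CPM and 212 CPM, with a UMI in 95 of 129 cells (73.6%) and 26 of 38 cells (68.4%). In epithelial cells, whose median depth was 5989 UMIs in the butyrate library and 7941 in the RA library, Cd4 was found in 4 of 838 and 10 of 695 cells. At full depth Cd4 UMIs were thus found in most members and in few epithelial cells, and the Cd8 genes were at 0 by rule.

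Sh2d1a, which encodes SAP, an adaptor of SLAM receptors that follicular helper cells need, had 448 CPM (401 to 498) in butyrate members and 216 CPM (163 to 281) in RA members. It was higher in members than in gate-negative cells in both libraries, where it had 164 CPM (butyrate) and 75.7 CPM (RA). The log2 fold change was 1.44 (SE 0.19, adjusted p 0.003304) by edgeR's quasi-likelihood test with Benjamini-Hochberg adjustment over 7164 genes, fitted to UMI sums of 4 classes in 2 libraries with the library as a block. Against Lef1-high cells it was 0.68 (adjusted p 0.03732), and against Foxp3-positive cells 0.72 (adjusted p 0.07869), which did not pass. Cd4 and Cd28 passed in none of the 3 comparisons: the log2 fold changes of Cd4 were 0.48, 0.33 and 0.51 (adjusted p 0.3904, 0.4637 and 0.323), and those of Cd28 were 0.31, 0.23 and 0.45 (adjusted p 0.4877, 0.5307 and 0.1941). All of these values were above 0. The rule set gate-negative cells apart by Tnfsf8 and Izumo1r, so genes that go with them, such as those of follicular helper cells, were partly chosen. Cd4 UMIs were found in 50% of butyrate and 34.2% of RA gate-negative cells.

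Members were then compared with gate-negative T cells, which shared every other condition of the rule. By edgeR's quasi-likelihood test at an adjusted p under 0.05, 50 genes were higher (0.698% of 7164 tested) and 51 lower (0.712%) in members, 1.41% in either direction, and all 101 had the same sign in both libraries taken alone. Of the 50 higher genes 6 were on the follicular helper list, and of the 51 lower genes 5 were on the CD8 and cytotoxic list. Of 14 follicular helper genes tested, 6 were higher and 0 lower, with a median log2 fold change of 1.25, against -0.01 over all genes tested. The rule set these groups apart by Tnfsf8 and Izumo1r, and Izumo1r is known from follicular helper cells. Genes that go with Izumo1r were thus partly chosen, and the follicular helper list is given as a description.

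Btla, an inhibitory receptor of follicular helper and B cells, rose most of the follicular helper genes. Btla had 112 CPM in butyrate members against 12.3 CPM in butyrate gate-negative cells, and 118 CPM in RA members against 9.46 CPM in RA gate-negative cells. The log2 fold change was 3.30 (SE 0.37, adjusted p 0.001072). Tox, Tox2 and Maf, transcription factors of the follicular helper programme, rose by 1.53, 1.65 and 0.82 on the log2 scale (adjusted p 0.002867, 0.01119 and 0.03379). Tox had 1596 CPM in butyrate members against 402 CPM in gate-negative cells, and 899 CPM in RA members against 428 CPM. Cd200, an inhibitory ligand, rose by 2.17 (adjusted p 0.04474), with 52.5 CPM against 18.4 CPM in the butyrate library and 94.2 CPM against 9.46 CPM in the RA library.

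Bcl6 and Cxcr5, the factor and the chemokine receptor that define follicular helper cells, did not pass in this comparison. Bcl6 had 213 CPM in butyrate members against 75.1 CPM in gate-negative cells, but 149 CPM against 137 CPM in the RA library (log2 fold change 0.80, adjusted p 0.3868). Cxcr5 had 48.6 CPM against 6.13 CPM in the butyrate library and 35.3 CPM against 16.6 CPM in the RA library (1.98, adjusted p 0.146). Both were higher in members in each library, by unequal amounts.

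Tnfrsf4, encoding the costimulator OX40, had 349 CPM in butyrate members against 85.8 CPM in gate-negative cells, and 200.2 CPM in RA members against 104 CPM (log2 fold change 1.55, adjusted p 0.02222). Tnfsf11, encoding RANKL, had 119.5 CPM against 47.5 CPM in the butyrate library and 200.2 CPM against 52.0 CPM in the RA library (1.57, adjusted p 0.04839). These were the 2 of 13 costimulatory genes that passed (8 were above 0, median 0.05), and Icos, at 0.66 (adjusted p 0.0859), did not. Both calls, and those of Tox2 and Shld1, held under 5 of 7 alternatives. The highest adjusted p of edgeR or DESeq2 among these was 0.1923 for Tnfrsf4, 0.1538 for Tnfsf11, 0.06347 for Tox2 and 0.0883 for Shld1.

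Other genes that rose steeply were Tbc1d4, an Akt substrate that controls glucose transporter traffic, by 2.05 (adjusted p 0.0001134), and Eea1, an early endosome protein, by 1.87 (adjusted p 0.002842). Tbc1d4 had 735 CPM in butyrate members against 162.5 CPM in gate-negative cells and 471 CPM in RA members against 121 CPM. The tetraspanin Tspan5, the neurotrophin receptor Ntrk3, the neuronal vesicle protein Nsg2 and the ganglioside synthase St8sia1 rose by 1.83, 1.85, 1.93 and 1.63 (adjusted p 0.004787, 0.009842, 0.008529 and 0.01186). The nucleotide enzyme Ctps2 and the shieldin subunit Shld1 rose by 1.57 and 1.80 (adjusted p 0.01184 and 0.02858). None of these genes belongs to the lists used here.

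On the lower side, Xcl1, a chemokine of cytotoxic and NK cells, had 0 UMIs in all members against 624 CPM in butyrate and 452 CPM in RA gate-negative cells, at least 158-fold lower in the butyrate library and at least 38.4-fold lower in the RA library with a floor of 3 UMIs over each members' sum. Gzma, encoding a granzyme, also had 0 UMIs in members against 126 CPM and 378 CPM, at least 31.9-fold and 32.1-fold lower. Klrd1, an NK receptor chain, had 6.56 CPM in butyrate members against 167 CPM in gate-negative cells, and 11.8 CPM in RA members against 170.3 CPM (log2 fold change -4.34, SE 0.41, adjusted p 0.0005738). Nkg7, a granule protein, and Ccl5, a chemokine of effector T cells, fell by 3.67 and 3.53 (adjusted p 0.00273 and 0.01581). The calls of Gzma, Nkg7 and Kit each failed under 1 of 7 alternatives and that of Ccl5 under 2 (highest adjusted p 0.07182, 0.05414, 0.1763 and 0.4242 by edgeR or DESeq2). Of 8 tested genes of the CD8 and cytotoxic list 5 were lower, and summed over its 10 measured genes the list had 591 CPM in butyrate members against 3656 CPM in gate-negative cells, and 31.4 CPM against 3157 CPM in the RA library.

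Gate-negative cells therefore held cytotoxic transcripts that members largely lacked, and the follicular helper difference above stands beside that difference in cell content; its part in the result was not tested. The stromal and endothelial list had 277 CPM in butyrate members against 176 CPM in gate-negative cells, and 279 CPM in RA members against 1835 CPM, with Col1a1, Col1a2, Col3a1, Lum and Pdgfra at 0 in butyrate members. Kit, a receptor of innate lymphoid and mast cells, was lower in members (-2.53, adjusted p 0.01184). Of the 15 T helper 17 genes, Ccl20 alone was higher (adjusted p 0.01119), with 7 UMIs in butyrate members against 0 and 47 in RA members against 3. Of those 47, 37 lay in a single cell.

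Of 20 early response genes switched on by receptor signalling, 0 were higher and 1, Egr1, was lower in members, against 0.698% and 0.712% of all genes tested. Of the 18 genes of T cell receptor signalling, 0 passed in either direction by edgeR's quasi-likelihood test, although 16 had a log2 fold change above 0 and the median was 0.28. Over all genes tested, 828 had an unadjusted p under 0.05, and DESeq2 called 47 genes higher and 33 lower.

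**Figure D3:**
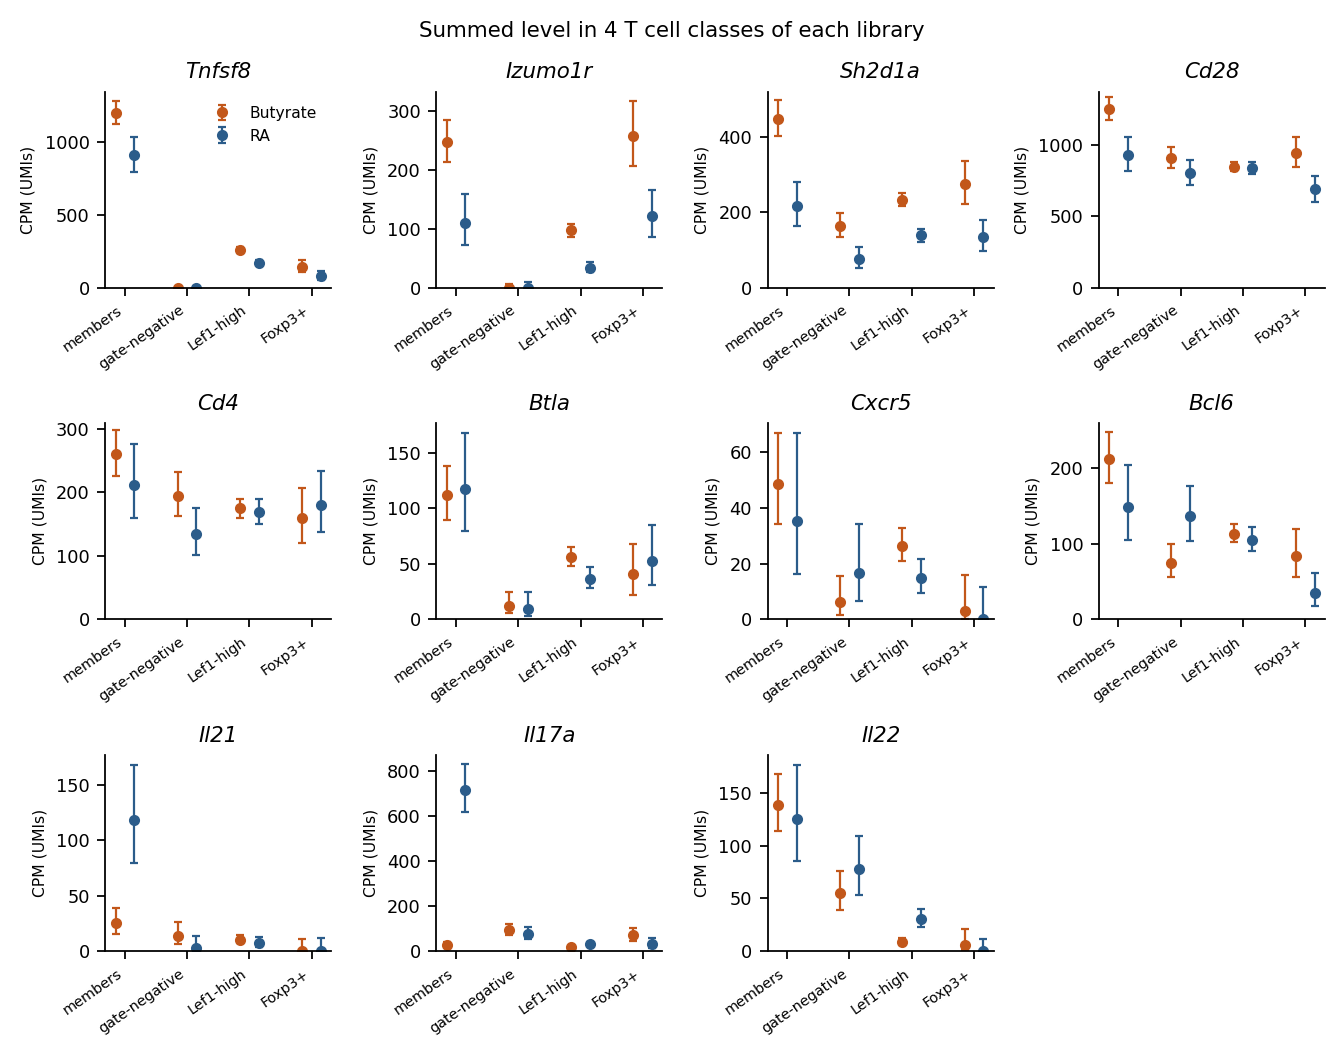
Level of 11 genes, in CPM of the summed UMIs of each class, in members, gate-negative, Lef1-high and Foxp3-positive T cells of the butyrate library (orange) and the RA library (blue). Points are sums and bars exact Poisson 95% intervals, and Tnfsf8 and Izumo1r, which chose the members, are shown as a description; Btla lies near 112 CPM (butyrate) and 118 CPM (RA) in members and near 12.3 and 9.46 CPM in gate-negative cells.

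Against Lef1-high T cells, the largest class, 236 genes were higher (3.29% of 7164) and 221 lower (3.08%) in members, 6.38% in either direction, by edgeR's quasi-likelihood test. The rule capped Lef1 in members, so genes that go with Lef1 were partly chosen and the naive list is given as a description. Of its 13 genes tested, 11 were lower. Ccr7 and S1pr1, receptors for entry to and exit from lymph nodes, had log2 fold changes of -1.24 and -1.31.

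Higher in members than in Lef1-high cells were 10 of 15 T helper 17 genes (median log2 fold change 1.42), 8 of 14 follicular helper genes (1.00), 6 of 13 costimulators (0.90) and 5 of 12 checkpoint receptors, against a median of -0.01 over all genes. Icos had 1223 CPM in butyrate members against 621 CPM in Lef1-high cells and 1543 CPM in RA members against 556 CPM (1.10, adjusted p 0.002377). Pdcd1, which encodes PD-1, had 52.5 CPM against 13.1 CPM in the butyrate library and 58.9 CPM against 12.4 CPM in the RA library (1.96, adjusted p 0.002428). Ctla4 rose by 1.13 (adjusted p 0.0007966) and Il2ra, the inducible interleukin 2 receptor chain, by 2.07 (adjusted p 0.002109). The rule capped Lef1 in members and asked only them for UMIs of Tnfsf8 or Izumo1r, so these differences do not test the activation label. Against gate-negative cells Icos, Ctla4, Pdcd1 and Il2ra did not pass, with log2 fold changes of 0.66, 0.54, -0.07 and -1.20 (adjusted p 0.0859, 0.08579, 0.987 and 0.05993), and Foxp3-positive cells had more Ctla4 and Il2ra than members.

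Tnfsf11 rose by 3.396 on the log2 scale (SE 0.34, adjusted p 0.0003705), with 119.5 CPM in butyrate members against 15.01 CPM in Lef1-high cells and 200.2 CPM in RA members against 9.6 CPM. Il22, a cytokine that acts on the epithelium, had 139 CPM against 8.62 CPM in the butyrate library and 126 CPM against 30.5 CPM in the RA library (2.89, adjusted p 0.001442). Il23r, the receptor chain that sustains T helper 17 cells, rose by 2.61 (adjusted p 0.001624). Il17a and Il17f rose by 3.23 and 2.80 (adjusted p 0.03891 and 0.00891), but with unequal size in the 2 mice, and the calls failed under 2 and 1 of 7 alternatives (highest adjusted p 0.1442 and 0.05555). Il17a had 26.3 CPM in butyrate members against 17.6 CPM in Lef1-high cells, and 718 CPM in RA members against 31.1 CPM.

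Compared with Foxp3-positive cells, members had 89 genes higher (1.24% of 7164) and 76 lower (1.06%), 2.3% in either direction, by edgeR's quasi-likelihood test. Foxp3 separated these classes by rule, and of 10 tested regulatory T cell markers other than Foxp3, 7 were lower in members (median -2.05). Il2ra and Ikzf4, a partner of Foxp3, fell by 2.42 and 2.96 (adjusted p 0.0007233 and 0.002052), and Ctla4 by 1.12 (adjusted p 0.001512). Il10, an anti-inflammatory cytokine, had 22.3 CPM in butyrate members against 269 CPM in Foxp3-positive cells and 15.7 CPM in RA members against 209 CPM (-3.60, adjusted p 0.01741; highest under 7 alternatives 0.2064).

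Higher in members than in Foxp3-positive cells were Cxcr5, Bcl6, Cd40lg and Il21, 4 of 14 follicular helper genes, against 1.24% of all genes. The rule asked members, but not Foxp3-positive cells, for UMIs of Tnfsf8 or Izumo1r. Genes that go with Izumo1r were thus partly chosen here as well, and the list is given as a description. Cd40lg, the ligand that licenses B cells, had 90.6 CPM in butyrate members against 5.78 CPM in Foxp3-positive cells and 122 CPM in RA members against 3.12 CPM (4.47, adjusted p 0.001512). Cxcr5 had 48.6 CPM against 2.89 CPM in the butyrate library, and 9 UMIs against 0 in the RA library (4.72, adjusted p 0.02158). Bcl6 had 213 CPM against 83.8 CPM and 149 CPM against 34.3 CPM (1.66, adjusted p 0.04813). Pde3b, which breaks down cAMP, and Themis, a T cell receptor signalling protein, rose by 5.64 and 5.14 (adjusted p 8.483e-06 for both), and Tcf7, a factor of memory and follicular helper cells, by 1.80 (adjusted p 0.001512).

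The members were not uniform. A UMI of Il17a, Il17f or Il22 was found in 19 of 129 butyrate members (14.7%, exact 95% interval 9.11 to 22.04%) and 15 of 38 RA members (39.5%, 24.0 to 56.6%). After thinning each cell to 2000 UMIs these were 11 of 129 (8.53%) and 8 of 38 (21.1%). In epithelial cells Il17a was found in 0 of 838 butyrate cells (exact 95% upper limit 0.439%) and in 1 of 695 RA cells (0.144%), and Il22 in 2 and 3 cells.

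These cytokine-positive cells lay almost entirely among members without Izumo1r UMIs. With Izumo1r, 3 of 75 butyrate members (4%, 0.833 to 11.3%) and 1 of 13 RA members (7.69%, 0.195 to 36.0%) had a UMI of the 3 cytokines. Without Izumo1r, 16 of 54 butyrate members (29.6%, 17.98 to 43.6%) and 14 of 25 RA members (56%, 34.9 to 75.6%) had one. The order was the same in both mice. After thinning of the same groups, set before thinning, it was 1.33% against 18.5% in the butyrate library and 0% against 32% in the RA library. The split was chosen after its values were seen. Members without Izumo1r UMIs had at least 2 UMIs of Tnfsf8 by rule, so genes that go with either gene were partly chosen. The split, also for the genes below, is given as a description.

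Cxcr5 showed the opposite order. It was found in 21 of 75 butyrate members with Izumo1r (28%, 18.2 to 39.6%) against 5 of 54 without (9.26%, 3.08 to 20.3%), and in 3 of 13 RA members with Izumo1r (23.1%) against 2 of 25 without (8%). The epithelial share of Cxcr5 was 2.27% in the butyrate library and 2.45% in the RA library. Bcl6 was found in 46 of 75 butyrate members with Izumo1r against 26 of 54 without, and in 9 of 13 RA members against 7 of 25, while epithelial cells had it in 16.1% (butyrate) and 16.7% (RA). After thinning, Cxcr5 was at 10.7% against 3.7% in the butyrate library and in 1 of 13 against 0 of 25 RA members. Bcl6 was then at 30.7% against 27.8% in the butyrate library, nearly equal, and at 69.2% against 20% in the RA library. Cxcr5 and Il17a were found together in 0 members, Il21 and Il17a in 1 butyrate and 2 RA members, and Il22 and Cxcr5 in 1 butyrate member, with only 6 butyrate and 7 RA members holding Il17a and 26 and 5 holding Cxcr5. Whether these counts differ from chance was not tested.

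By edgeR's quasi-likelihood test of Izumo1r-only against Tnfsf8-only members, 0 of 2991 genes were higher and 2 were lower (0.0669%), Il22 and Il17f. Il22 had 0 UMIs in Izumo1r-only members of both libraries, against 95 UMIs in butyrate and 32 in RA Tnfsf8-only members (adjusted p 0.02632), at least 11.2-fold lower in the butyrate library and 1.47-fold lower in the RA library. Il17f likewise had 0 against 46 and 154 UMIs (adjusted p 0.02055), at least 5.43-fold lower in the butyrate library and 7.08-fold lower in the RA library. An unadjusted p under 0.05 was reached by 129 genes, DESeq2 called 0 genes, and the RA library had only 4 Izumo1r-only cells. The call held under 3 of 6 alternatives for Il22 and 4 of 6 for Il17f (highest adjusted p 0.9988 for both, by DESeq2). The subsets were defined by the genes of the rule, and the comparison was chosen with earlier results of these data known.

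With all members that had Izumo1r UMIs set against those without, a comparison added after the values were seen, 2 of 3915 genes were higher (0.0511%) and 0 lower. The balance depended on the setting: 3 were higher and 18 lower with DESeq2 size factors, 3 and 20 without the library block, 4 and 10 after thinning, 3 and 5 by DESeq2, 9 and 69 with no filter on low counts, and 0 and 2 with high doublet scores removed. The 2 genes higher in the first count were the hemoglobin genes Hba-a1 and Hbb-bs. Of their butyrate UMIs 485 of 490 and 353 of 363, and of their RA UMIs 336 of 338 and 1097 of 1102, lay in 1 cell per library. The 240 genes with an unadjusted p under 0.05 included Cxcr5, with 68.6 CPM against 16.9 CPM in the butyrate library and 83.2 CPM against 11.7 CPM in the RA library (log2 fold change 2.25, adjusted p 0.496). S1pr1 had 122 CPM in butyrate members with Izumo1r against 318 CPM in those without, and 143 CPM against 393 CPM in the RA library (-1.41, adjusted p 0.3207). Il18r1 had 116 CPM against 403 CPM and 23.8 CPM against 604 CPM (-2.46, adjusted p 0.3207). None of these 3 genes passed the adjustment.

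**Figure D4:**
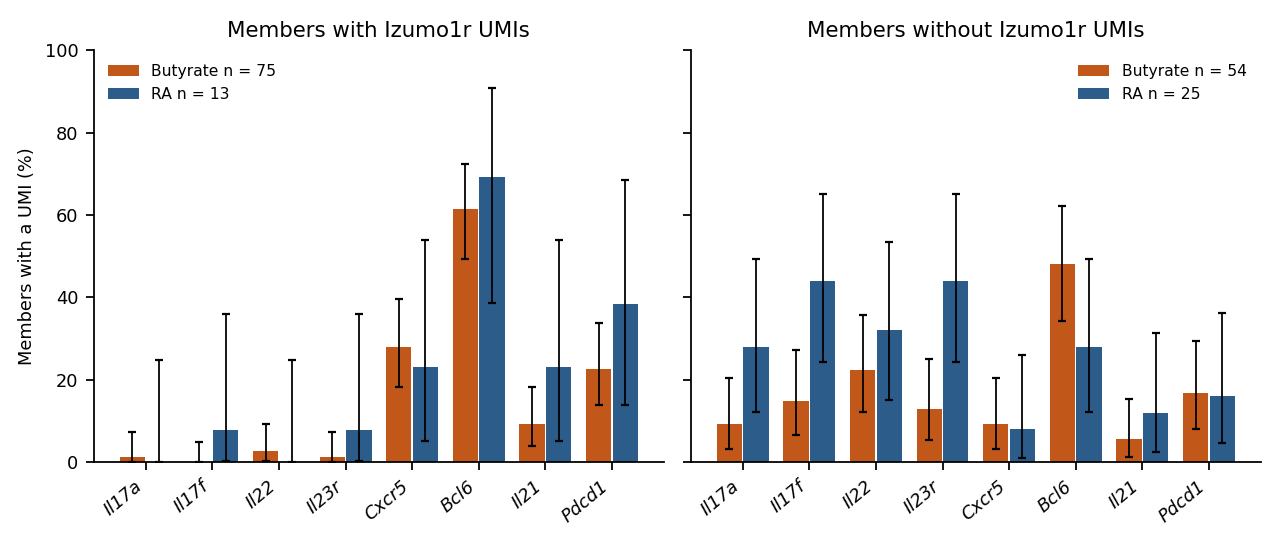
Percentage of members with a UMI of 4 T helper 17 and 4 follicular helper genes, among members with Izumo1r UMIs (left, 75 butyrate and 13 RA cells) and without (right, 54 and 25 cells). Bars are shares in the butyrate library (orange) and the RA library (blue) with exact 95% intervals; Il17f, for example, is at 0% and 7.69% on the left and at 14.8% and 44% on the right.

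The last comparison asks how the members themselves differed between the butyrate-fed and the CIA mouse. Among 5953 genes with at least 20 UMIs, 445 had a CPM ratio of at least 2 (7.48%) and 281 of at most 0.5 (4.72%) in butyrate over RA members, 12.2% in either direction. The median log2 ratio, with 0.5 added to each UMI sum as for every median of log2 ratios below, was -0.02. With TMM factors, a scaling to the bulk of genes, the split was 533 higher and 211 lower, with a median of 0.08, and with 0.5 added to each sum it was 343 and 304. These counts come from 129 against 38 cells and have no test.

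T helper 17 genes lay low as a list. Of 13 tested, 7 were at least 2-fold lower and 0 at least 2-fold higher in butyrate members, with a median log2 ratio of -1.09. Over all genes tested, 4.72% were lower and 7.48% higher by that measure. Il17a had 20 UMIs, or 26.3 CPM, in butyrate members and 183 UMIs, or 718 CPM, in RA members, a ratio of 0.0366 (exact conditional 95% interval 0.0218 to 0.0581). Il17f had 60.4 CPM in butyrate members and 612 CPM in RA members (0.0986, 0.0694 to 0.138). Il23r had 42.0 CPM and 141 CPM (0.297, 0.179 to 0.492), and Cxcr6, a receptor of tissue-resident T cells, 98.5 CPM and 294 CPM (0.334, 0.24 to 0.467).

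Il22 had a ratio near 1, with 139 CPM in butyrate members and 126 CPM in RA members (1.11, 0.74 to 1.70). Of its 32 RA UMIs 24 lay in 1 cell, without each library's top cell the ratio was 3.30, and the share of members with a UMI was 10.9% in the butyrate library and 21.1% in the RA library. Rora had 876 CPM and 1107 CPM (0.791). Of the RA cytokine UMIs, 1 member with 14223 UMIs held 103 of 183 for Il17a and 34 of 156 for Il17f. Il17a was found in 6 of 129 butyrate members and 7 of 38 RA members, and Il17f in 8 and 12. With that cell and 4 butyrate members left out (below), the ratio was 0.0845 for Il17a and 0.127 for Il17f. In that setting 7 of 12 T helper 17 genes were at least 2-fold lower (median -1.12), against 4.47% of all genes. A second RA member, which was kept, held 54 of the 183 Il17a UMIs, so the remaining Il17a ratio still rested largely on 1 cell.

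Izumo1r UMIs were found in 75 of 129 butyrate and 13 of 38 RA members. The values were therefore also taken within the members that lacked Izumo1r UMIs. There Il17a had 64.3 CPM in 54 butyrate members and 1072 CPM in 25 RA members (ratio 0.06), and Il17f 156 CPM and 902 CPM (0.173). In those cells 4 of 12 T helper 17 genes were at least 2-fold lower, with a median of -0.70, against 6.23% of all genes tested there. A cell with 0 UMIs of a gene as low as Izumo1r may still express it, so this is no match of Izumo1r level, and the part of the differing Izumo1r share in the result was not tested. In gate-negative, Lef1-high and Foxp3-positive cells the same ratio was 1.24, 0.565 and 2.23 for Il17a and 0.91, 0.598 and 1.55 for Il17f.

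S100a4, a calcium-binding protein of effector and memory T cells, had 206 UMIs, or 270.4 CPM, in butyrate members and 262 UMIs, or 1028 CPM, in RA members (0.263, 0.218 to 0.317). Lgals3, encoding galectin-3, had 78.8 CPM and 408 CPM (0.193), and the actin-capping protein Capg 40.7 CPM and 149 CPM (0.273). Unlike Il17a, these 3 were spread over cells: S100a4 was found in 33 butyrate and 18 RA members, Lgals3 in 29 and 15, and Capg in 22 and 17. In members with Izumo1r UMIs, S100a4, Lgals3 and Cxcr6 were not lower in the butyrate library, with 63, 18 and 15 UMIs in 75 butyrate cells against 0 UMIs of each in 13 RA cells. Maml1, a Notch coactivator, had 32.8 CPM and 114 CPM (0.288) and its paralog Maml3 82.7 CPM and 7.85 CPM (10.5, 2.80 to 88.9). Itgb7, the integrin chain for homing to the gut, had 97.1 CPM in butyrate members and 271 CPM in RA members (0.359, 0.255 to 0.505), against ratios of 1.02, 0.873 and 1.09 in gate-negative, Lef1-high and Foxp3-positive cells. Differences of this ratio between classes were not tested.

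Among 11 cytokine genes tested, 6 were at least 2-fold lower and 1 higher in butyrate members (median -1.27), against 4.72% and 7.48% of all genes. Besides Il17a and Il17f the lower ones were Il21, the B cell helper cytokine (24.9 CPM and 118 CPM), Tnf (23.6 CPM and 86.4 CPM), Tgfb1 (73.5 CPM and 177 CPM) and Areg. For Areg, which encodes the epithelial growth factor amphiregulin, 58 of 62 RA UMIs lay in the RA member named above, and its ratio of 0.173 became 2.70 without that cell and the 4 butyrate members. Il21 had 18 of 30 RA UMIs in 1 cell and Tnf 15 of 22. Tgfb1 was more widely found, in 39 butyrate and 18 RA members, with a ratio of 0.416 (0.276 to 0.63). The higher one was Il4, with 35 UMIs in 9 butyrate members and 1 UMI in 1 RA member (11.7, 1.97 to 475). The list median depended on single cells. Without the RA member named above and the 4 butyrate members, 5 of 10 cytokine genes were at least 2-fold lower and 3 higher (median -0.52). Over all genes that setting gave 4.47% lower and 7.02% higher. Without each gene's top cell in each library, 4 of 9 were lower and 3 higher (median -0.53), against 2.79% and 13.7% of all genes.

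Follicular helper genes did not move together between the mice. Of 15 tested, 3 (Sh2d1a, Sostdc1 and Slamf6) were at least 2-fold higher and 1 (Il21) lower, against 7.48% and 4.72% of all genes. The median log2 ratio was -0.09. Sh2d1a was the abundant one that differed, with 448 CPM in butyrate members and 216 CPM in RA members (2.07, 1.56 to 2.81). Its ratio was 2.17 in gate-negative, 1.69 in Lef1-high and 2.05 in Foxp3-positive cells, so the difference was also found in these other Cd8-negative T cells. Sostdc1, an antagonist of BMP and Wnt signals found in follicular helper cells, had 69 UMIs in 8 butyrate members and 4 UMIs in 1 RA member (5.77, 2.15 to 21.8). Bcl6, Cxcr5, Pdcd1 and Btla had ratios of 1.43, 1.38, 0.892 and 0.948 with intervals that include 1, and Maf had 0.9 (0.771 to 1.05).

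Of 12 costimulators tested, 0 had a 2-fold difference, against 12.2% of all genes, and the median log2 ratio was 0.01. Cd28 was 1.35 (1.17 to 1.56), Icos 0.793 (0.704 to 0.895) and Tnfrsf4 1.74 (1.29 to 2.40), and Ctla4, with 1062 CPM in butyrate and 1056 CPM in RA members, was 1.01 (0.875 to 1.16). Of 17 genes of T cell receptor signalling 1 was 2-fold higher and 1 lower, against 7.48% and 4.72% of all genes. Prkcq, a kinase at the immune synapse, had 404 CPM and 208 CPM (1.94, 1.45 to 2.65). Cd4 was at 1.23 (0.903 to 1.69). Single costimulators thus lay on either side of 1, by less than 2-fold.

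All 8 tested genes of the type I interferon list (median log2 ratio 0.71) and 16 of 18 of the interferon gamma list (0.37) had a log2 ratio above 0, against 2917 of 5953 of all genes. At least 2-fold higher were 1 of the 8 type I genes, Xaf1, with 22 UMIs against 1, and 3 of the 18 interferon gamma genes, against 7.48% of all genes. With a mean over cells in place of summed UMIs, 8 of 8 and 11 of 18 lay above 0. In members with Izumo1r UMIs, 4 of 5 type I genes (median 0.19) and 8 of 16 interferon gamma genes (median 0.003) lay above 0. Isg15, a ubiquitin-like interferon product, had 121 CPM in butyrate members and 70.7 CPM in RA members (1.71, 1.02 to 3.01). Isg15 was at 1.35 and 1.79 in gate-negative and Lef1-high cells and at 0.994 in Foxp3-positive cells. Cd274, which encodes PD-L1, had 94 UMIs in 42 butyrate members and 5 UMIs in 5 RA members (6.29, 2.60 to 19.8). The ratio of Cd274 was 1.05 in gate-negative, 1.42 in Lef1-high and 0.83 in Foxp3-positive cells. Psmb9, an immunoproteasome subunit, was at 1.92 (1.28 to 2.99).

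Ikzf2, encoding Helios, a factor of regulatory and follicular T cells, had 772 CPM in butyrate members and 279 CPM in RA members (2.77, 2.162 to 3.595), with a UMI in 74 of 129 and 16 of 38 cells. In the other classes it was lower in the butyrate mouse, with ratios of 0.55 in gate-negative, 0.77 in Lef1-high and 0.847 in Foxp3-positive cells. Hopx, found in long-lived effector T cells, had 291 CPM and 122 CPM (2.40, 1.64 to 3.61), and Slamf6, a SLAM receptor that signals through SAP, 228 CPM and 114 CPM (2.01, 1.35 to 3.09). The heat shock genes Hspa1a and Hspa1b had ratios of 2.67 and 3.34, with 150 of 367 and 102 of 340 butyrate UMIs in 1 cell.

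**Figure D5:**
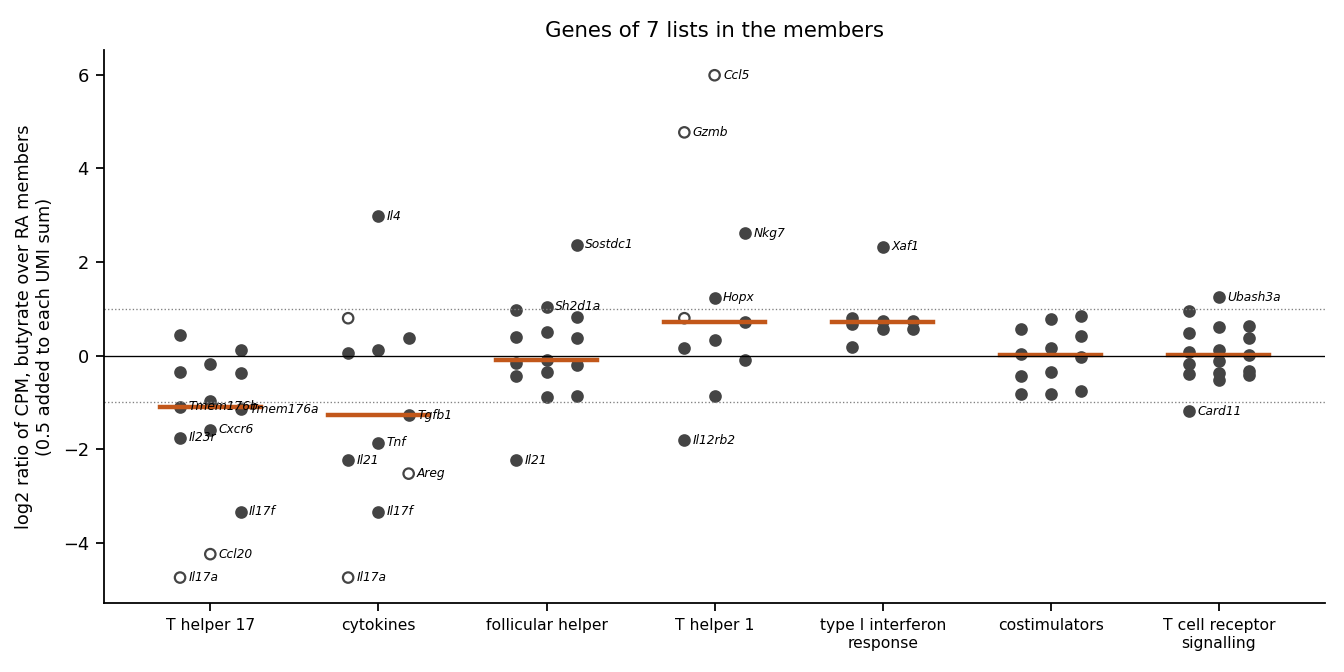
Log2 ratio of CPM (0.5 added to each UMI sum), butyrate over RA members, of the genes with at least 20 UMIs in 7 lists, with the list median as an orange line and a 2-fold change as dotted lines. Open circles are genes whose top cell held most of all their UMIs; the T helper 17 median lies at -1.09 and the costimulator median at 0.01.

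Several of the highest ratios rested on single cells. Ptgs2, which encodes the prostaglandin synthase COX-2, had 135 UMIs in 1 butyrate member and 0 in RA members (at least 15.1-fold higher over a floor of 3 UMIs). The same cell held 51 of 64 Il1b, 108 of 113 Cxcl2, 47 of 84 Cd74 and 33 of 58 H2-Aa UMIs, beside 15 UMIs of the myeloid gene Lyz2. A different butyrate member held 270 of 285 Ccl5 and 39 of 54 Basp1 UMIs beside 48 UMIs of Cst3, a gene of dendritic cells. Another held all 94 Ccl21a and all 20 Lyve1 UMIs, both genes of lymphatic endothelium, and the last held 97 of 122 Gzmb UMIs. Of these 4 cells, 3 thus carried myeloid, dendritic or lymphatic transcripts together with CD3 UMIs; whether they were doublets was not tested.

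Without these 4 butyrate members and the RA member with most Il17a, 402 genes were at least 2-fold higher (7.02%) and 256 lower (4.47%). By ratio, Ccl5 then stood at 2.37, Gzmb at 8.45, Cxcl2 at 1.35 and Basp1 at 1.01, and Plac8, with 81 of 84 RA UMIs in the removed RA member, at 2.82 in place of 0.195. Il12rb2, the receptor chain of T helper 1 cells, stood at 0.518 in place of 0.285, and Ccl20 at 0.237 in place of 0.0498. The ratios of Sh2d1a, S100a4, Lgals3 and Ikzf2 were 2.05, 0.268, 0.2 and 2.67.

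Segments of the T cell receptor beta chain were seen in few members, since 3′ libraries rarely reach them. Of 30 butyrate members with a Trbv segment, 12 had Trbv12-2, and 14 different segments were seen. Among 8 RA members with one, 8 segments were seen and the most frequent, Trbv2, was in 2 cells. Trbv12-2 was also the most frequent segment in Lef1-high cells of the butyrate library, in 27 of 93 cells, and in 6 of 44 Lef1-high cells of the RA library. Near-identical segments can share reads, which makes the counts of single segments uncertain.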

How the data were processed

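The deposited values were raw UMI counts per gene and barcode, 1 matrix per library, made by the authors with Cell Ranger on mm10. The submitters' processing notes list Cell Ranger at version 6.0.1 with Seurat at 4.0.3 or 4.0.4, while the deposited counts carry Cell Ranger 7.1.0 per the file headers; whether intronic reads were counted is not given in the sources used here.

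Barcodes were filtered and classed by UMI counts as the report describes. The doublet caller in scanpy 1.11.5 marked 0 barcodes in either library and was not relied on; as an alternative, barcodes with the top doublet scores (0.8% per 1000 barcodes) were removed. Members and gene lists were chosen with earlier results of these data known. UMIs were summed per class and library and given as CPM with exact Poisson 95% intervals, and butyrate over RA ratios with exact conditional binomial intervals. A ratio between the libraries was called at 2-fold, among genes with at least 20 UMIs. Intervals and floors (3 counts) cover counting error only. Classes were compared with edgeR 4.0.16 (R 4.3.3), by glmQLFTest with Benjamini-Hochberg adjustment, on 8 sums of 4 classes with the library as a block, so the 2 mice were the replicates. That block comes from the design, since every class was taken from both libraries. DESeq2 1.42.0 was an alternative. The edgeR fit and the ratio intervals were tested on simulated data.

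Genes were named by a rule on size: the 12 highest and 8 lowest fold changes among genes with an adjusted p under 0.05, 1 direction in both libraries and a mean of at least 50 CPM, and the 10 highest and 10 lowest butyrate over RA ratios where the gene had 50 or more UMIs and its interval excluded 1. Genes of the lists and single genes beyond the rule were chosen after their values were seen. Some genes are not reported here.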

Additional observations from a re-analysis of the deposited data

Results flagged for a closer look

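In 3 of 164 pairs of a gene and a class comparison, the ratio of members over another class lay below 1 in the butyrate library and above 1 in the RA library, with both intervals clear of 1. The difference between the mice was not tested, since each gave 1 library.

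Il17a, members over gate-negative cells, was at 0.2808 in the butyrate library (0.1605 to 0.4719, 20 UMIs against 61) and at 9.492 in the RA library (6.494 to 14.29, 183 UMIs against 32). Il17f over the same cells was at 0.6677 in the butyrate library (0.444 to 0.9987) and at 6.165 in the RA library (4.36 to 8.888). Il17a over Foxp3-positive cells was at 0.3787 in the butyrate library (0.1984 to 0.7154) and at 23.06 in the RA library (12.26 to 48.9). In RA members 103 of the 183 Il17a UMIs and 34 of the 156 Il17f UMIs lay in 1 cell. A second RA cell held 54 of the Il17a UMIs.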

How the results depend on the processing

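Both shares of members kept their direction under all 8 alternatives, with ratios of 2.42 to 3.914 for kept cells and 1.631 to 2.613 for Cd8-negative T cells. Each group had 1 mouse, and the RA members were 38 cells, which limits every ratio.

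Of the genes at least 2-fold higher in butyrate members, 894 were counted with a minimum of 10 UMIs, 113 with 50, 242 after thinning, 813 without each gene's top cell and 242 in members with Tnfsf8 alone. The genes at least 2-fold lower numbered 548, 85, 144 and 166 under the first 4 of these. Leaving out a top cell takes 1 of 38 RA but 1 of 129 butyrate members, which moved the median of all genes to 0.16.

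Some log2 ratios, with 0.5 added to each sum, changed sign. With at least 3 UMIs of Tnfsf8 and Izumo1r, Ccl5 was at -0.14 and Gzmb at -0.50. Without the 5 members, Basp1 was at -0.34 (only through that 0.5, its plain ratio being 1.01), Areg at 1.29 and Plac8 at 1.30, and without the top cell Areg was at 0.86 and Plac8 at 1.54. In members with Izumo1r UMIs, of which RA had 13, Lgals3 was at 2.74, Plac8 at 3.83, S100a4 at 4.52, Cxcr6 at 2.48, Tmem176a at 0.59 and Tmem176b at 1.62. Hspa1a was at -0.59 with Tnfsf8 alone and Tbx21 at -0.18 after thinning. The cause was not tested. Of the other gene ratios under alternatives, 719 stayed within the interval and 94 moved.

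Without the replicate block (the library), 13 genes were higher and 19 lower than in gate-negative cells, 241 counted as genes different between members and Lef1-high T cells and 100 as genes different between members and Foxp3-positive T cells, 0 between Izumo1r-only and Tnfsf8-only members, and 23 between members with and without Izumo1r. With no filter on low counts these were 156, 197, 695, 409, 34 and 78. With only the 2 classes compared they were 121, 131, 793, 332 and 1 for the first 5. By DESeq2, 33 genes were lower than in gate-negative cells, and the Izumo1r comparisons gave 0 and 8. Thinning gave 0 and 14, removal of doublet scores 5 between Izumo1r-only and Tnfsf8-only members, and DESeq2 size factors 21 between members with and without Izumo1r. Leaving out a library leaves 1 sum per class and no test, so only the ratio within each library was taken.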
